A study of Mus musculus with 15 samples.

Results

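The interferon-stimulated genes of mouse skin were followed across 15 RNA sequencing libraries of treated wounds, weeks after wounding, and normal skin. The members were the genes on a list of 44 known interferon-induced genes, matched by symbol, and 41 of them were among the 18929 genes of the deposited table. The other 3 listed genes, Mx1, Mx2 and Oas1a, were not analysed here. All 41 passed the filter on low counts, which kept 15369 genes.

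The libraries came from dorsal skin of wild-type male balb/c mice, 4 to 6 weeks old at wounding, in 5 groups of 3. Full-thickness wounds of 10 mm or 15 mm received either acellular Matrigel beads (the acellular groups) or HDB, printed Matrigel beads carrying a high density of mesenchymal stem cells from human umbilical cord, with acellular beads between them. Normal skin had no wound. The control wounds therefore also carried Matrigel, and no wound was left without beads. The labels do not say whether replicates were separate animals, so p-values measure the spread between these samples, which may be technical. The donor cells were human, and the part that human reads took in the mouse counts was not tested. Total counts lay between 15840551 and 18404188 a library. Levels are CPM, counts scaled to 1 common library total with TMM factors, and a gene was called at an adjusted p under 0.05 (edgeR quasi-likelihood test, Benjamini-Hochberg adjustment over all genes tested).

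Interferons are cytokines that cells release when they sense foreign or misplaced nucleic acid, or, for interferon gamma, when T and natural killer cells are activated. Type I and type III interferons act through the kinases JAK1 and TYK2 on a complex that holds STAT2 and IRF9 and binds the interferon-stimulated response element (ISRE) of target promoters. Interferon gamma acts on the gamma-activated site (GAS), and IRF1 made in response turns on a second set of targets. In skin, keratinocytes, resident macrophages and plasmacytoid dendritic cells can all make or answer interferon after injury. BALB/c mice carry a defective Mx1, so this strain is a limited model of the Mx arm of the response.

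The promoters of the members often, but not always, held the ISRE core. RefSeq (GRCm38.p6) gave a promoter, 250 bases before to 50 bases after the start, for 33 of the 41 members. The ISRE core was searched as GAAA, any 2 bases and GAAA and the GAS as TTCNNNGAA, each on both strands. The ISRE core was found in 19 of 33 members (57.6%), against 3.99% of the 27025 genes with a promoter (3.44% of the 32851 promoters). The members without these letters in the window included Ifit2, Oasl1, Oasl2, Irf7, Irf9 and Irf1. The GAS letters were found in 8 of 33 members (24.2%), against 9.55% of all genes (8.3% of promoters). All 5 interferon-inducible GTPases with a promoter, Gbp2, Gbp3, Gbp5, Igtp and Irgm1, held the ISRE core, and Gbp5 and Igtp held the GAS letters as well. A match is a description of these letters in the reference strain and not a measured binding site.

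The following 5 promoters are shown because the results turn on Ifit3 and Ifit3b, because Isg15 was high in a library where most members were low, and because Gbp2 and Irf1 stand for the GTPases and for the GAS. Capitals mark the ISRE core in the first 4 and the GAS in Irf1, each written 5′ to 3′ on the strand of its gene. They lie at chr19:34583279-34583578 (plus strand, Ifit3), chr19:34607707-34608006 (plus, Ifit3b), chr4:156200769-156201068 (minus, Isg15), chr3:142620413-142620712 (plus, Gbp2) and chr11:53769764-53770063 (plus, the first of 2 Irf1 promoters) in GRCm38.p6.
Ifit3: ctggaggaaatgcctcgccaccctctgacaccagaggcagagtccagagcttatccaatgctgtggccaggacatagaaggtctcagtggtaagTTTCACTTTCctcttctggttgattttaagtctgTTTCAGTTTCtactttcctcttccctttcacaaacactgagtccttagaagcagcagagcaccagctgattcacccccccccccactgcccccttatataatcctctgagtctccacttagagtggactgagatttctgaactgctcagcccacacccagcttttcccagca
Ifit3b: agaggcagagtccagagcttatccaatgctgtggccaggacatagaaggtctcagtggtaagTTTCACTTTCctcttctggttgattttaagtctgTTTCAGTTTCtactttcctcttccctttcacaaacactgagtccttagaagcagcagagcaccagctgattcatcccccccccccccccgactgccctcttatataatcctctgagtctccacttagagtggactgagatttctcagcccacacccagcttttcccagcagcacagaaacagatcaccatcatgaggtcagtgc
Isg15: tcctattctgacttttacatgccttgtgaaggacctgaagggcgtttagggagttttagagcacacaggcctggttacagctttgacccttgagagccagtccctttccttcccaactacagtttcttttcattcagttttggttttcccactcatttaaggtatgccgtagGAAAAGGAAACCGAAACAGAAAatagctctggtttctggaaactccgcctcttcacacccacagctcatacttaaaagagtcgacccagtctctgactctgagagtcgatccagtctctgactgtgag
Gbp2: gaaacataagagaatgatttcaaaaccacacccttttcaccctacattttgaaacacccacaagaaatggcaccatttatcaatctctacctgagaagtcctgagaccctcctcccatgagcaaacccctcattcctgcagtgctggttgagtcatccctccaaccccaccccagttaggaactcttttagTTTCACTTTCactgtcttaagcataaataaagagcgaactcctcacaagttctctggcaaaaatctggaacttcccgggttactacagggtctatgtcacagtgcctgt
Irf1: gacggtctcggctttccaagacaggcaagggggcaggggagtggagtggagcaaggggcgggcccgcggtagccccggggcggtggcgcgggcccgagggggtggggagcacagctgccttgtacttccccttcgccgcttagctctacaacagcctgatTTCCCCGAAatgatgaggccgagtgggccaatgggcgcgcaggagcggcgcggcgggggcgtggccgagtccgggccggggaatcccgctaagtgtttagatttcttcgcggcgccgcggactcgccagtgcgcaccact

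Ifit3 and Ifit3b are near-identical copies, and their promoters shared an unbroken run of 169 of 300 bases. Both carried 2 ISRE cores with the same spacing. In Ifit3 these began 156 and 122 bases before the start, and in Ifit3b 188 and 154 bases before it. In Isg15, 3 overlapping ISRE cores ran together. Reads from Ifit3 and Ifit3b could be split between the copies by the counting, so each is given with their sum. The 4 Ifit members lie side by side on chromosome 19, from Ifit2 (chr19:34550550-34576534) to Ifit1 (chr19:34640889-34650009). Dtx3l (chr16:35926515-35939027) and Parp9 (chr16:35938470-35972621) overlap on chromosome 16, and the sources do not say whether strand was used, so their counts may share reads.

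Per kilobase of the longest coding transcript, and averaged over all 15 samples, Ifitm3, which blocks virus entry at membranes, was highest at 198 CPM per kb. The transcription factor Irf1 followed at 30.7, Bst2 (tetherin, which holds budding virus at the cell surface) at 27.7 and Ifi35 at 23.2 CPM per kb. The lowest members were Ifi208 at 0.31, Oas3 at 0.63 and Oasl1 at 1.26 CPM per kb. In the 3 normal samples alone the order below Ifitm3 was another, with Bst2 at 31.1, Lgals3bp at 26.1, Ifi35 at 25.6 and Irf1 at 20.9 CPM per kb.

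**Figure D1:**
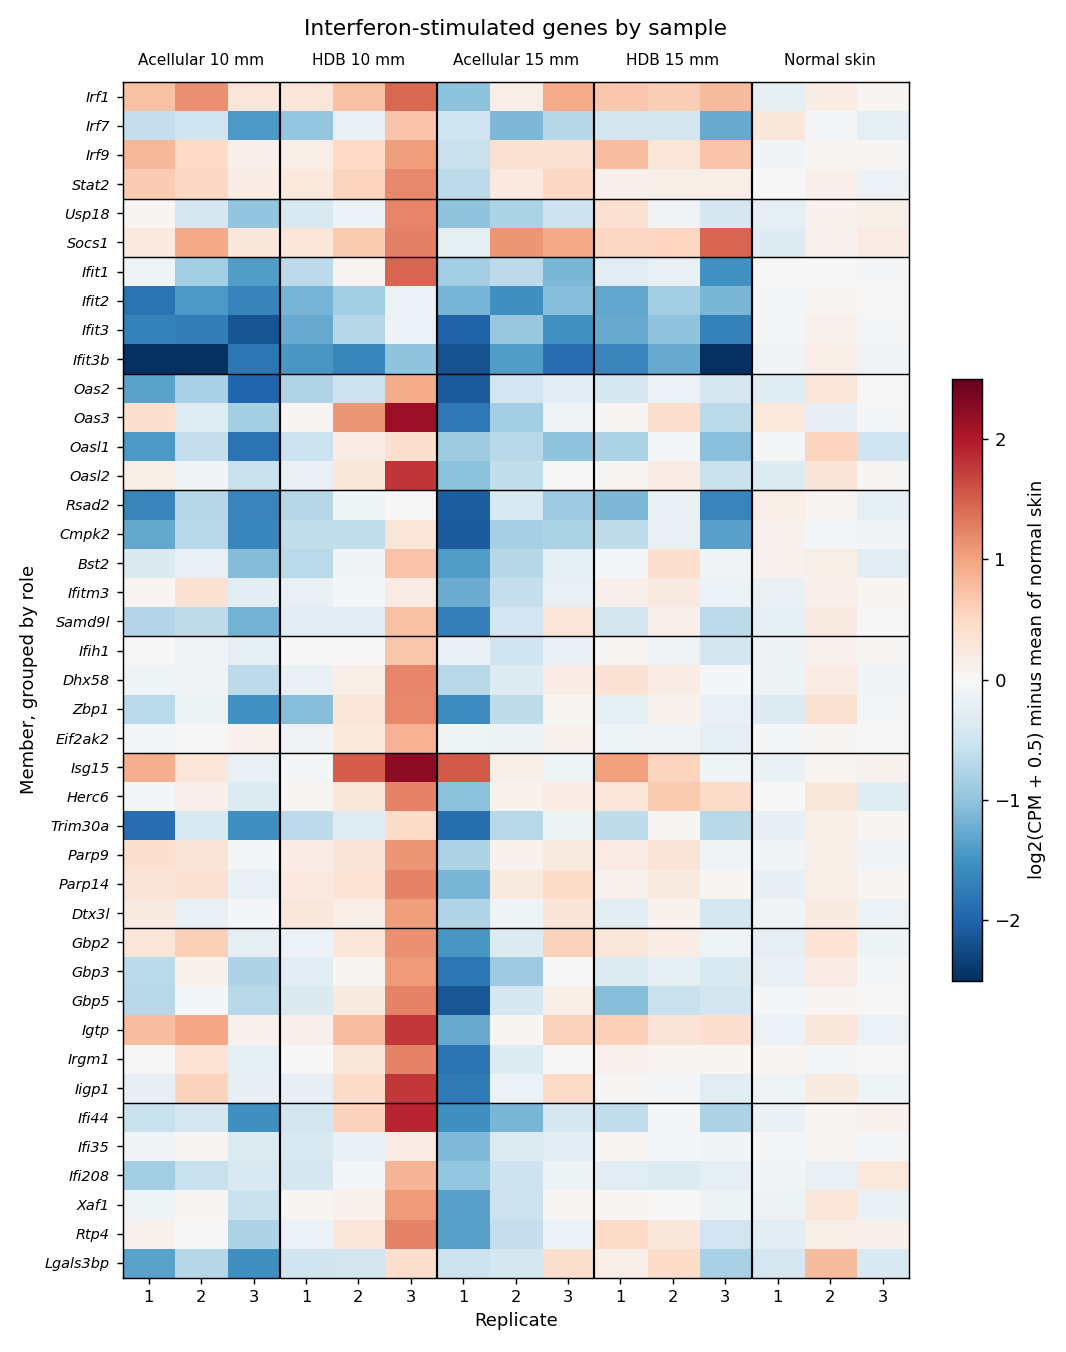
Each row is 1 of 41 interferon-stimulated genes, grouped by role, and each column 1 sample; colour gives log2(CPM + 0.5) minus the mean of the 3 normal skin samples, with the scale ending at 2.5 in either direction. HDB 10 mm replicate 3 is red for most genes, acellular 15 mm replicate 1 is blue for most genes, and Ifit2, Ifit3 and Ifit3b are blue in nearly all wound samples.

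A pair of libraries stood apart in the members' own levels and was picked after those levels were seen. The medians of the members and of each role in HDB against acellular skin are given with and without this pair. Leaving out an HDB library with high members and an acellular library with low members tends to lower the HDB estimates by design. These fits thus show how far the estimates lean on the pair, and they test nothing. HDB 10 mm replicate 3 had the highest level of all 15 samples for 33 of 41 members, against 4.09% of all genes tested. It lay above both other HDB 10 mm samples for all 41 members, against 30% of all genes, with a median log2 difference of 1.02 (0.02 for all genes). The difference ran from 1.24-fold for Ifitm3 to 3.71-fold for Ifi44, and it was 3.54-fold for Ifit1, 3.40-fold for Oasl2 and 3.14-fold for Iigp1. The Ifit paralogs moved unequally in this library, with 1.86-fold for Ifit2, 1.81-fold for Ifit3 and 1.48-fold for Ifit3b against 3.54-fold for Ifit1.

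Acellular 15 mm replicate 1 was the opposite case. It had the lowest level of all samples for 28 of 41 members, against 22.3% of all genes, and lay below both other acellular 15 mm samples for 34 members, against 40.8% of all genes. This library was also the highest of all samples for 29.4% of all genes, and for 0 members. Its group had the lowest correlations between replicates (r from 0.853 to 0.921), so the library was unusual over the whole table. The median log2 difference was -1.02, with Gbp5 at -2.17, Iigp1 at -1.95 and Oas3 at -1.89. Isg15, a ubiquitin-like protein that is attached to other proteins, went the other way and was 2.96-fold higher there (log2 difference 1.57), and Irf7 was 1.34-fold higher. The nucleic acid sensors Ifih1 and Eif2ak2 were at log2 differences of 0.15 and -0.10 and Ifit2 at 0.14, so the low level was not shared by all members.

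Markers of other cell types moved with these libraries. In HDB 10 mm replicate 3 the 5 T cell markers summed to 34 CPM (20.5 and 24.7 in the other 2) and the 4 natural killer cell markers to 17.9 CPM (6.63 and 8.77). In acellular 15 mm replicate 1 they summed to 3.40 and 1.13 CPM, the lowest of all samples, and the 5 hair shaft markers to 5320 CPM, against 0.20 to 430 CPM in the other 14 samples. The 5 plasmacytoid dendritic cell markers were highest of all samples in HDB 10 mm replicate 3, at 201 CPM, and lowest in acellular 15 mm replicate 1, at 96.7 CPM, where the keratinocyte markers were lowest as well, at 5688 CPM. Most of the 201 CPM was Tcf4 (130 CPM) and Irf8 (64.4 CPM), and Irf8 is itself induced by interferon. Siglech was at 4.44 CPM in that library, against 3.72, 6.76 and 7.18 CPM in normal skin. The sum is therefore no measure of these cells alone. Over groups, the T cell sum ran from 13.5 to 27.8 CPM in acellular 10 mm, 20.5 to 34 in HDB 10 mm, 3.40 to 36.5 in acellular 15 mm, 17.6 to 37.5 in HDB 15 mm and 18.1 to 24.2 CPM in normal skin, with none of the 5 markers at 0. HDB 15 mm replicate 3 had the highest T cell sum, 37.5 CPM, and a natural killer cell sum of 14.6 CPM, and lay below both other samples of its group for 31 of 41 members (36.6% of all genes). The part of cell content in the members' levels was not tested, and in bulk tissue fewer cells of a type and less RNA per cell cannot be told apart.

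Ifng itself, the interferon gamma gene, was at 43 counts in HDB 10 mm replicate 3, the highest of all libraries, and at 7 and 8 counts in the other HDB 10 mm samples. It was at 1 count in acellular 15 mm replicate 1 and at 20 counts in replicate 3 of that group. In normal skin it was at 0, 2 and 1 counts. The type I and type III interferon genes on the list were nearly silent, with Ifnb1, Ifna1 and Ifnl3 at 1 count, Ifne and Ifnl2 at 2 counts and Ifnk at 3 counts over all 15 libraries together, too few to test.

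**Figure D2:**
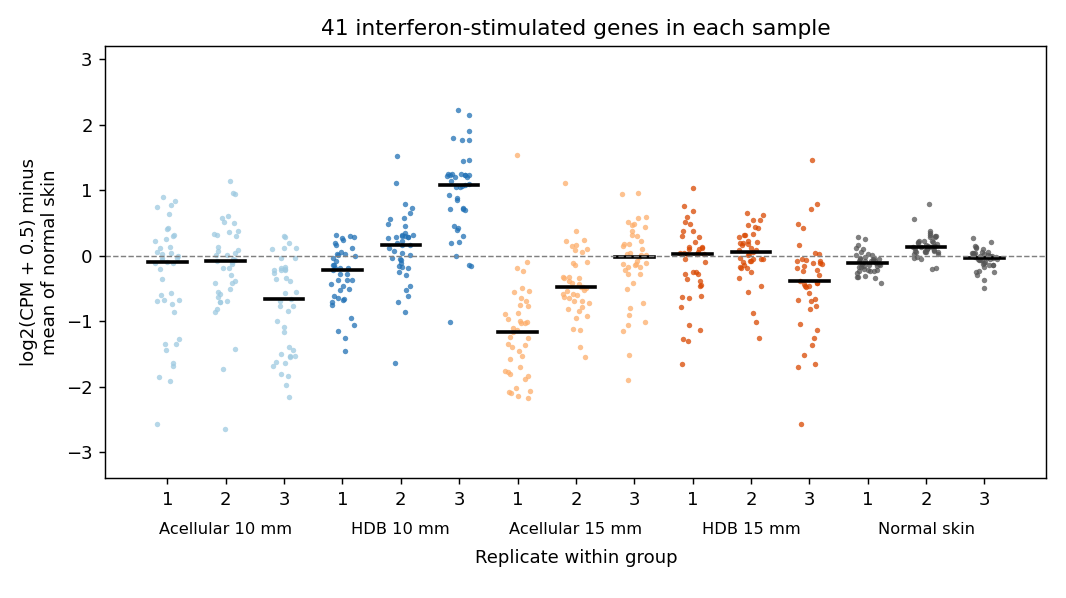
Each point is 1 of the 41 members in 1 sample, as log2(CPM + 0.5) minus the mean of normal skin, and black bars are medians over members. The 3 normal samples lie close to 0, while HDB 10 mm replicate 3 lies about 1 log2 unit above and acellular 15 mm replicate 1 about 1 log2 unit below.

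The spread within groups was wider for the members than for other genes. The median SD of log2 CPM was 0.59 for the members and 0.22 for all genes in HDB 10 mm, and 0.65 against 0.41 in acellular 15 mm. It was 0.42 against 0.20 in acellular 10 mm, 0.25 against 0.21 in HDB 15 mm and 0.20 against 0.15 in normal skin. The mean log2 CPM over members was 4.21 ± 0.14 in normal skin, 3.74 ± 0.32 in acellular 10 mm, 4.46 ± 0.67 in HDB 10 mm, 3.59 ± 0.58 in acellular 15 mm and 4.01 ± 0.23 in HDB 15 mm (SD over samples, n = 3 each).

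The first comparison asked how stem cell beads changed the members against acellular beads. In the 10 mm wounds 40 of 41 members had a higher estimate in HDB, with a median log2 fold change of 0.83 (-0.01 over all genes), but none was called. No gene of the whole table was called there either (0%), by edgeR's adjusted p. At an unadjusted p under 0.05 (edgeR) there were 16 members, all higher in HDB, against 2.1% of all genes in that direction, and DESeq2 called 0 members (0.0799% of all genes) and had 21 at an unadjusted p under 0.05. Every HDB 10 mm sample lay above every acellular 10 mm sample for 8 members (4.53% of all genes): Ifit2, Ifit3, Ifit3b, Oas2, Oasl1, Cmpk2, Samd9l and Lgals3bp. Without HDB 10 mm replicate 3 the median fell to 0.27, with 33 of 41 estimates higher and 3 members at an unadjusted p under 0.05 (edgeR). Leaving out HDB 10 mm replicate 1 in its place gave 1.16, with 30 members at that p. Here and below, no share of all genes at an unadjusted p was computed for fits with a library left out or for DESeq2. Those counts can therefore not be set against the whole table. Other cell markers differed between these groups as well. The 5 fibroblast markers summed to 3456, 5286 and 3651 CPM in acellular 10 mm and 8798, 9694 and 11460 CPM in HDB 10 mm, with no overlap. The 5 macrophage markers summed to 53.3, 151 and 47.6 CPM and to 89.3, 195 and 144 CPM in turn, which overlapped. Of the 195 CPM in HDB 10 mm replicate 2, 83.6 CPM was Cd14, which was at most 18.7 CPM in any other sample. The macrophage sum of that library thus rested in large part on 1 marker. The 5 neutrophil markers summed to 217 CPM in the same library, with S100a9 at 123 CPM. No other sample had a neutrophil sum above 33.9 CPM. In the 15 mm wounds the fibroblast sums were 3351 to 14330 CPM with acellular beads and 7957 to 17940 CPM with HDB, and the macrophage sums 48.8 to 175 and 130 to 232 CPM. Their part in the members' estimates was not tested.

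In the 15 mm wounds 37 of 41 members had a higher estimate in HDB, with a median of 0.36 (0.00 over all genes). None was called, against 2.93% of all genes, and 3 members, all higher, were at an unadjusted p under 0.05 with edgeR (7.48% of all genes in that direction). DESeq2 called 0, against 12.4% of all genes, and had 3 at an unadjusted p under 0.05. HDB and acellular samples did not overlap for Ifi35, Irgm1, Herc6, Ifitm3, Usp18 and Bst2, all higher in HDB, a count of 6 where 8.55% of all genes did so. Ifitm3 had the smallest p there and was called only without acellular 15 mm replicate 3. In that setting 14.9% of all genes were called and the members' median was 0.68, with 39 of 41 estimates higher and 11 members at an unadjusted p under 0.05 (edgeR). Without acellular 15 mm replicate 1 and HDB 10 mm replicate 3 the median was 0.15, with 26 of 41 estimates higher. The labels do not say whether equal replicate numbers belong together. With the replicate as a block 0 members were called at this size (1.16% of all genes).

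Over both sizes all 41 estimates were higher in HDB, with a median of 0.60 (-0.01 over all genes), and none was called (0% of all genes). There were 16 members at an unadjusted p under 0.05 with edgeR, all higher (5.32% of all genes in that direction), and 20 with DESeq2, which called 0 (1.51% of all genes). The edgeR count was 4 without HDB 10 mm replicate 3 and 25 without acellular 15 mm replicate 3. In the fit without acellular 15 mm replicate 3 the median was 0.73, and 1.47% of all genes and 0 members were called. Without HDB 10 mm replicate 3 and acellular 15 mm replicate 1 together the count at the unadjusted p was 2, the median was 0.26 and 31 of 41 estimates were higher. The estimates that all pointed one way thus rested in part on those libraries. In that setting 10 members had a lower estimate in HDB, among them the GTPases Gbp2, Gbp5, Igtp and Iigp1 and the interferon gamma target Irf1 (log2 fold change 0.30 with all samples and -0.07 without both libraries).

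**Figure D3:**
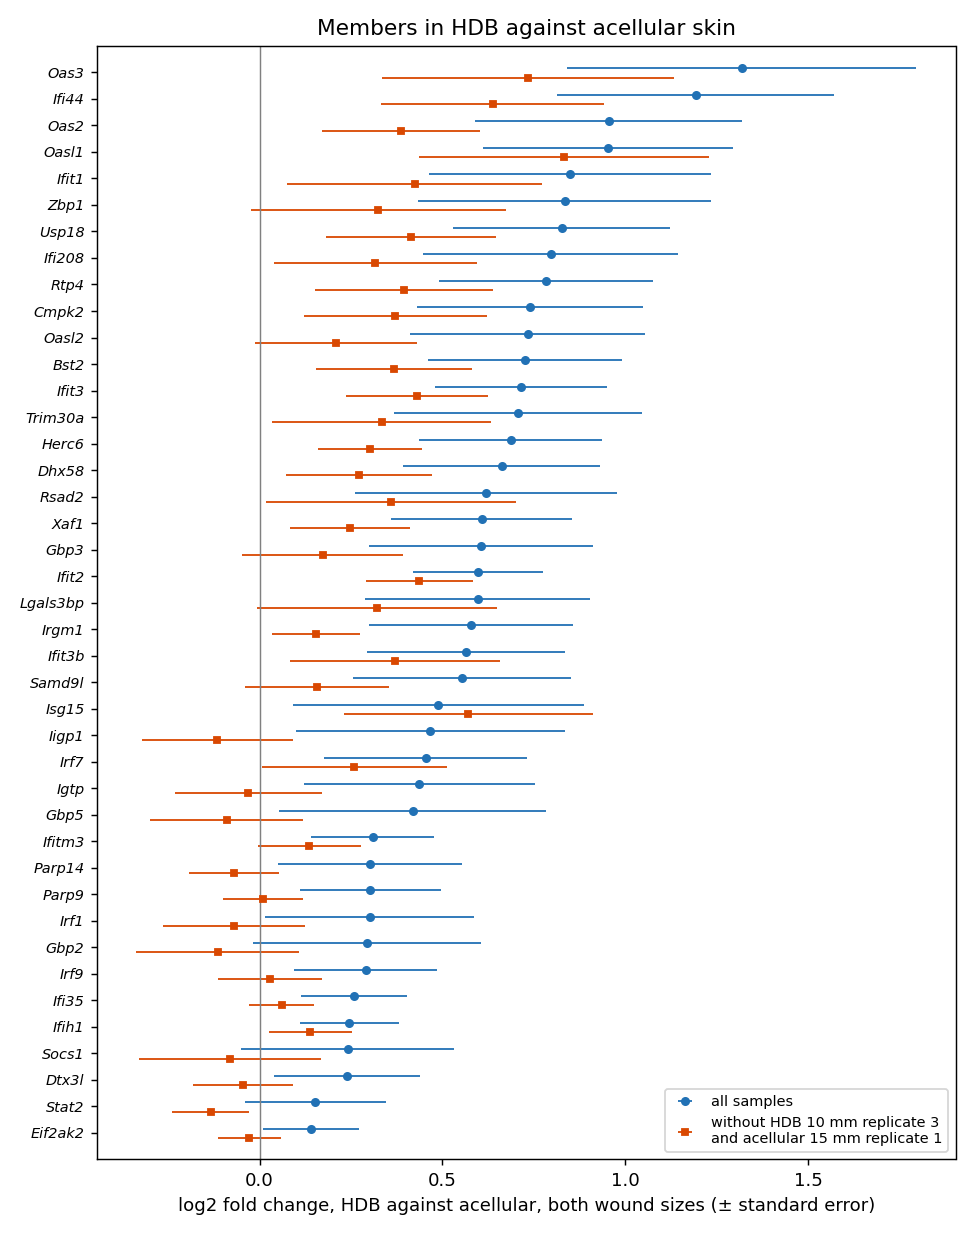
Log2 fold change of each member in HDB against acellular skin over both wound sizes, with bars of 1 standard error, from all samples (blue circles) and without HDB 10 mm replicate 3 and acellular 15 mm replicate 1 (orange squares). All 41 blue estimates lie above 0, and 31 of 41 orange estimates do.

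By role, the OAS family, whose enzymes sense double-stranded RNA or resemble those that do, had the highest median over both sizes at 0.95 for 4 members, and 0.56 without both libraries. Its range ran from 0.73 for Oasl2 to 1.32 ± 0.48 (SE) for Oas3 (adjusted p = 0.26, edgeR). Oasl2 was at 20.8, 18.0 and 12.6 CPM in acellular 10 mm, 16.5, 23.0 and 66.5 in HDB 10 mm, 9.07, 12.2 and 18.6 in acellular 15 mm, 19.1, 21.6 and 12.6 in HDB 15 mm and 14.8, 23.6 and 19.2 CPM in normal skin. HDB 10 mm replicate 3 alone left the range of the other samples. The fold between HDB and acellular for Oasl2 over both sizes was 1.66 with all samples. Without both libraries the log2 fold change was 0.21 for Oasl2 and 0.73 for Oas3.

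The IFIT family, proteins that bind viral RNA and block its translation, had a median of 0.66 for 4 members over both sizes, 1.18 in the 10 mm wounds and 0.15 in the 15 mm wounds. Without both libraries these were 0.43, 0.77 and 0.04. Ifit2 had the smallest p of the members in the 10 mm wounds and over both sizes. It was at 6.05, 8.31 and 6.90 CPM in acellular 10 mm and at 10.1, 12.5 and 21.1 CPM in HDB 10 mm, with no overlap. In acellular 15 mm it was at 10.0, 7.64 and 10.8 CPM and in HDB 15 mm at 9.08, 12.4 and 10.3 CPM, which overlapped. The log2 fold change of Ifit2 was 1.04 ± 0.25 (SE) in 10 mm wounds (adjusted p = 0.9999, edgeR), 0.16 ± 0.25 in 15 mm wounds and 0.60 ± 0.18 over both (adjusted p = 0.26, edgeR). An exact two-sided permutation test over both sizes gave p = 0.025 for Ifit2, where 400 arrangements allow 0.005 at the smallest. Ifit3 and Ifit3b summed gave 1.21 ± 0.31 in 10 mm and 0.11 ± 0.30 in 15 mm wounds on the log2 scale.

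The interferon regulatory factors and signal transducers gave smaller differences. Irf1, Irf7, Irf9 and Stat2 had a median of 0.30 over both sizes, from 0.15 (Stat2) to 0.45 (Irf7, the factor that amplifies type I interferon). Irf1 was at 74.6, 98.2 and 54.7 CPM in acellular 10 mm, 54.6, 74.0 and 121 in HDB 10 mm, 21.5, 49.8 and 85.4 in acellular 15 mm and 71.1, 68.5 and 76.7 CPM in HDB 15 mm. The groups overlapped at both sizes. Without both libraries the median of these 4 was -0.02.

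The 2 feedback inhibitors had unlike estimates, and the difference between them was not tested. Usp18, which removes Isg15 from proteins and blocks the type I receptor, had a log2 fold change of 0.83 ± 0.30 (SE) over both sizes, and Socs1, which blocks JAK kinases, 0.24 ± 0.29. Without both libraries these were 0.41 and -0.08. Usp18 was at 4.36, 5.14 and 6.32 CPM in acellular 15 mm and 12.1, 8.67 and 6.78 CPM in HDB 15 mm, with no overlap. In the 10 mm wounds it was at 9.59, 6.74 and 4.38 CPM in acellular and 6.99, 8.23 and 22.2 CPM in HDB, which overlapped. Normal skin held 7.80, 9.78 and 10.3 CPM of Usp18.

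Among the antiviral effectors, Ifitm3 had the smallest p at 15 mm. It was at 59.6, 94.1 and 125 CPM in acellular 15 mm and 154, 165 and 127 CPM in HDB 15 mm, a log2 fold change of 0.68 ± 0.24 (SE, adjusted p = 0.12, edgeR). The highest acellular and the lowest HDB sample, at 125 and 127 CPM, were close to each other, and without both libraries the log2 fold change was 0.44. At 10 mm it was at 145, 182 and 117 CPM in acellular and 124, 138 and 163 CPM in HDB, a log2 fold change of -0.06. Normal skin held 125, 154 and 146 CPM, and acellular 15 mm replicates 1 and 2 lay below every sample of the other groups. Cmpk2, Samd9l, Rsad2 (viperin) and Bst2 had log2 fold changes over both sizes between 0.55 and 0.74. The median of the 5 effectors was 0.62, and 0.36 without both libraries.

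The nucleic acid sensors had a median of 0.45 over both sizes, and 0.21 without both libraries. Zbp1, which senses Z-form nucleic acid, was highest, and Eif2ak2, the kinase PKR that halts translation when it binds double-stranded RNA, was the member with the smallest difference at 0.14 ± 0.13 (SE). Eif2ak2 was at 33.9, 35.1 and 37.5 CPM in acellular 10 mm, 32.9, 42.0 and 64.4 in HDB 10 mm, 32.4, 32.0 and 37.5 in acellular 15 mm, 32.4, 32.7 and 29.5 in HDB 15 mm and 34.3, 35.5 and 34.7 CPM in normal skin. Only HDB 10 mm replicates 2 and 3 left the narrow range of the other samples, and the estimate turned to -0.02 without HDB 10 mm replicate 3.

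The ubiquitin-like and ADP-ribose modifiers had a median of 0.40, and 0.16 without both libraries. Isg15 varied widely, at 13.9, 8.99 and 6.31 CPM in acellular 10 mm, 7.04, 21.6 and 35.7 in HDB 10 mm, 21.9, 8.05 and 6.64 in acellular 15 mm, 15.3, 10.8 and 6.66 in HDB 15 mm and 6.39, 7.57 and 7.78 CPM in normal skin. Its groups overlapped at both sizes. The log2 fold change of Isg15 was 1.14 ± 0.57 (SE) in 10 mm and -0.16 ± 0.56 in 15 mm wounds, and 0.57 at both sizes without both libraries, so the sign at 15 mm rested on acellular 15 mm replicate 1. Herc6, the mouse ligase that attaches Isg15, gave 0.71 and 0.67 in turn, and its exact two-sided permutation p over both sizes was 0.01, unadjusted and the smallest of the members. Without both libraries Herc6 was at 0.25 in 10 mm wounds, 0.36 in 15 mm wounds and 0.30 over both.

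The GTPases, which attack the vacuoles of intracellular microbes and answer strongly to interferon gamma, had a median of 0.45 for 6 members, and -0.06 without both libraries. Igtp (Irgm3) was at 45.2, 51.6 and 28.5 CPM in acellular 10 mm, 28.6, 45.5 and 90.7 in HDB 10 mm, 10.7, 27.3 and 39.7 in acellular 15 mm, 39.8, 33.2 and 35.2 in HDB 15 mm and 23.8, 32.1 and 23.7 CPM in normal skin. The groups overlapped at both sizes for Igtp. Irgm1 did not overlap at 15 mm, where acellular samples were at 10.5, 30.8 and 39.2 CPM and HDB samples at 41.9, 40.5 and 39.6 CPM, with normal skin at 37.6 to 40.5 CPM.

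The other induced genes had a median of 0.69 over both sizes, led by Ifi44 at 1.19 ± 0.38 (SE, adjusted p = 0.26, edgeR). Without both libraries the median was 0.32 and Ifi44 was at 0.64. Ifi35 was at 33.3, 36.5 and 27.4 CPM in acellular 10 mm, 26.7, 30.6 and 40.0 in HDB 10 mm, 16.0, 27.4 and 28.5 in acellular 15 mm, 35.8, 33.5 and 33.3 in HDB 15 mm and 34.1, 36.4 and 33.9 CPM in normal skin. At 15 mm the HDB samples of Ifi35 lay above the acellular samples and overlapped those of normal skin.

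The second comparison set each wound group against normal skin, and there 3 of the 4 IFIT members were lower in wounds. Ifit2, Ifit3 and Ifit3b were lower than normal skin in every one of the 12 wound samples, the only 3 of 41 members with that pattern. It was found in 11.1% of all genes, so it was no more frequent among the members. No member was above normal skin in every wound sample, against 9.86% of all genes. The called members were all lower: 4 in acellular 10 mm (20.3% of all genes called, 10.6% lower), 3 in acellular 15 mm (30.2% and 12.6%), 1 in HDB 10 mm (12.3% and 6.23%) and 3 in HDB 15 mm (5.18% and 2.51%). Ifit3b was the 1 member called in all 4, against 1.39% of all genes called lower in all 4. The members were thus called no more often than all genes in 3 of the 4 comparisons, HDB 15 mm lower calls being the exception. The 4 comparisons share the normal samples.

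**Figure D4:**
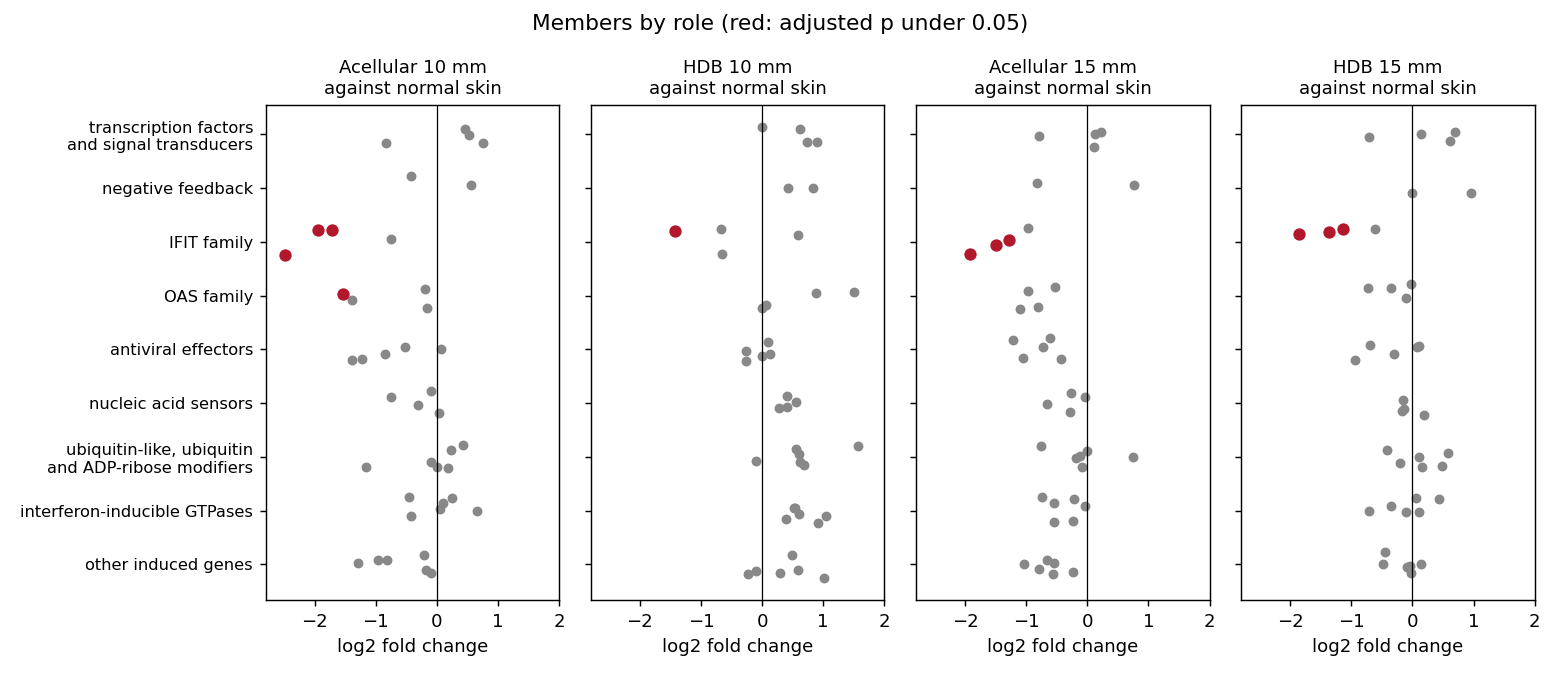
Log2 fold change of each member against normal skin in the 4 wound groups, by role, with members at an adjusted p under 0.05 (edgeR) in red. The red points are all lower than normal skin and all but 1 belong to the IFIT family.

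Ifit3b was at 14.8, 17.7 and 14.6 CPM in normal skin. It was at 2.23, 2.08 and 4.09 CPM in acellular 10 mm, 5.39, 4.68 and 7.5 in HDB 10 mm, 3.06, 5.6 and 3.82 in acellular 15 mm and 4.63, 6.24 and 2.2 CPM in HDB 15 mm. The highest wound sample was at 7.5 CPM and the lowest normal sample at 14.6 CPM. The log2 fold change was -2.48 ± 0.40 (SE) in acellular 10 mm (adjusted p = 0.0053, edgeR), -1.42 ± 0.38 in HDB 10 mm (0.034), -1.91 ± 0.39 in acellular 15 mm (0.0064) and -1.85 ± 0.39 in HDB 15 mm (0.029).

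Ifit3 was at 17.4, 19.6 and 17.6 CPM in normal skin, 5.31, 5.11 and 3.68 in acellular 10 mm, 7.34, 10.9 and 16.3 in HDB 10 mm, 4.08, 9.16 and 6.05 in acellular 15 mm and 7.26, 8.79 and 5.25 CPM in HDB 15 mm. HDB 10 mm replicate 3 came nearest to normal skin. The log2 fold change with acellular beads was -1.95 ± 0.34 (SE, adjusted p = 0.0062, edgeR) at 10 mm and -1.50 ± 0.33 (0.0089) at 15 mm. With HDB it was -1.36 ± 0.33 at 15 mm (adjusted p = 0.039, edgeR) and -0.66 ± 0.33 at 10 mm (0.19). With the copies summed, normal skin held 32.2, 37.2 and 32.2 CPM and the highest wound sample 23.8 CPM, and the changes were -2.17, -1.68, -1.56 and -0.96 in the same order (adjusted p = 0.0042, 0.0047, 0.023 and 0.054, edgeR).

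Ifit2 was at 22.6, 24.0 and 22.9 CPM in normal skin, above its highest wound value of 21.1 CPM. Its log2 fold change with acellular beads was -1.71 ± 0.26 (SE, adjusted p = 0.0046, edgeR) at 10 mm and -1.29 ± 0.25 (0.0057) at 15 mm, and with HDB -1.13 ± 0.25 at 15 mm (0.032) and -0.67 ± 0.25 at 10 mm (0.091). Without HDB 10 mm replicate 3, Ifit2 was the 1 member called in HDB 10 mm (1.78% of all genes). Ifit1, their neighbour on chromosome 19, was at 6.84 to 7.03 CPM in normal skin and from 2.09 to 19.9 CPM in wounds, and it was called in none of the 4. Oasl1 was the fourth member called in acellular 10 mm, at 1.09, 2.36 and 0.70 CPM against 3.65, 5.83 and 2.55 CPM in normal skin, a log2 fold change of -1.53 ± 0.49 (SE, adjusted p = 0.045, edgeR). It lost this call without acellular 10 mm replicate 1 or 3 and without any 1 normal library. The call was also lost on total counts and without the low count filter.

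The calls depended on single libraries. In fits without 1 normal library, 3 or more members were still called in each acellular group. Of all genes, 5.8% to 11.6% were called in acellular 10 mm in those fits and 14.8% to 17.8% in acellular 15 mm. Leaving out any 1 normal library left no member called in HDB 10 mm or HDB 15 mm. Leaving out HDB 15 mm replicate 1 or 3 also left 0 members called in HDB 15 mm, as did leaving out HDB 10 mm replicate 2 in its group. The share of all genes called fell as well, to 0.36% and 0.276% in HDB 15 mm and 1.15% in HDB 10 mm. In the fits without a normal library it fell to between 0.501% and 3.86% in HDB 10 mm and between 0.218% and 0.861% in HDB 15 mm. The folds moved little there, with log2 fold changes in HDB 15 mm between -1.89 and -1.75 for Ifit3b and between -1.38 and -1.30 for Ifit3. With its replicate 3 left out, the calls in acellular 15 mm rose to 7 members and 37.3% of all genes. With HDB 10 mm replicate 1 left out, Ifit3b was not called in HDB 10 mm, and Stat2, Eif2ak2 and Isg15 were called higher, 3 members beside 17.5% of all genes. When only normal skin and the group compared were fitted, Irf1 and Stat2 were called higher in acellular 10 mm and Irf1 and Irf9 in HDB 15 mm, where 42% and 22.9% of all genes were called. The scaling mattered too: on total counts without TMM factors, all genes moved up against normal skin by a median of 0.15 to 0.20 log2 units, and Ifit3b alone stayed below normal skin in all 12 wound samples (6.33% of all genes). On that scale Ifit2, Ifit3 and Ifit3b were again called lower in both acellular groups and in HDB 15 mm, and in HDB 10 mm Ifit3b was lower and Isg15 and Stat2 higher. The shares of all genes called on that scale were 28.5% and 38.9% in the acellular groups at 10 mm and 15 mm, and 21.3% and 13.6% in the HDB groups.

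Tissue content differed between wounds and normal skin as well. The 5 skeletal muscle markers summed to 36540 to 40070 CPM in normal skin and 437 to 26460 CPM in wounds. The 5 endothelial markers summed to 439 to 479 CPM in normal skin and 81.5 to 331 CPM in wounds, and the 5 macrophage markers to 175 to 412 and 47.6 to 232 CPM, with none of these markers at 0. The 5 plasmacytoid dendritic cell markers gave 160 to 184 CPM in normal skin and 96.7 to 201 CPM in wounds, with at most 1 marker at 0. The part of these differences in the lower Ifit levels was not tested.

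**Figure D5:**
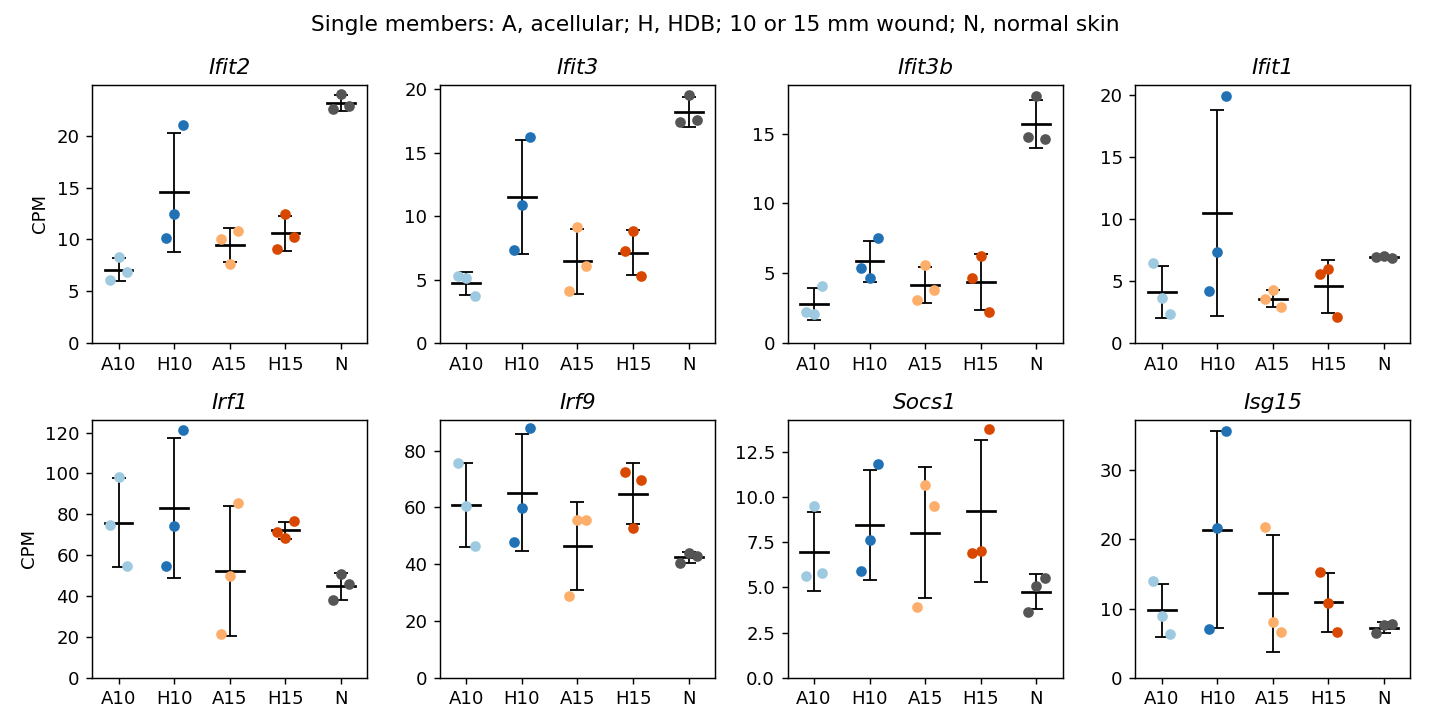
CPM of 8 members in every sample, with the mean and SD of each group (n = 3). Ifit2, Ifit3 and Ifit3b lie below normal skin in every wound sample, while Irf1, Irf9 and Socs1 lie above it in both 10 mm groups and in HDB 15 mm.

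Irf1, Irf9 and Socs1 lay above normal skin in 3 of the 4 wound groups, without being called with all groups in the fit. Irf1 was at 37.8, 50.7 and 45.7 CPM in normal skin, below every sample of acellular 10 mm, HDB 10 mm and HDB 15 mm. Irf9, the DNA-binding partner of STAT2, did the same at 40.3, 44.1 and 43.1 CPM in normal skin against 46.2 to 88.0 CPM in those 3 groups. Socs1 was at 3.65 to 5.50 CPM in normal skin and 5.65 to 13.8 CPM in those groups. Samples not overlapping with higher wound levels were found for 29.1%, 25.7% and 23.8% of all genes in acellular 10 mm, HDB 10 mm and HDB 15 mm, and for 4, 6 and 5 of 41 members, a smaller share in each. In acellular 15 mm this held for 0 members and 22.5% of all genes. Lower wound levels without overlap were found for 14, 13, 3 and 10 members in acellular 10 mm, acellular 15 mm, HDB 10 mm and HDB 15 mm, beside 27.2%, 21.5%, 23.4% and 22.6% of all genes. The log2 fold changes of Irf1 were 0.76, 0.90 and 0.69 (adjusted p = 0.19, 0.15 and 0.29, edgeR). Irf7 went the other way, at 35.1, 28.3 and 24.2 CPM in normal skin and at most 21 CPM in acellular 10 mm, acellular 15 mm and HDB 15 mm.

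Over all 41 members the median log2 fold change against normal skin was -0.21 (0.03 over all genes) for acellular beads at 10 mm and -0.55 (0.06) at 15 mm. With 1 library left out at a time these ran from -0.35 to -0.05 and from -0.88 to -0.32. For HDB the median was 0.48 (0.02) at 10 mm and -0.11 (0.02) at 15 mm. With 1 library left out at a time the HDB 15 mm median ran from -0.20 to 0.01. Without HDB 10 mm replicate 3 the HDB 10 mm median was -0.01. The GTPases had medians of 0.07, -0.38, 0.57 and -0.02, and the OAS family -0.79, -0.89, 0.47 and -0.23 in the same order. The IFIT family had a median of -0.67 in HDB 10 mm. With replicate 3 left out the HDB 10 mm medians were 0.11 for the GTPases, -0.09 for the OAS family and -1.02 for the IFIT family.

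The third comparison was of wound size. Between 15 mm and 10 mm wounds no member was called with acellular beads (median -0.19, 0.06 over all genes) or with HDB (median -0.52, 0.02 over all genes), and edgeR called no gene of the table in either (0%). At an unadjusted p under 0.05 (edgeR) there were 2 members with acellular beads (17.5% of all genes) and 8 with HDB, all lower at 15 mm (6.67% of all genes in that direction), and DESeq2 called 0 members in both (5.18% and 2.52% of all genes) and had 2 and 10. With acellular beads, Ifitm3 had the smallest p (log2 fold change -0.67 ± 0.24 SE, adjusted p = 0.20, edgeR) and was called only without acellular 15 mm replicate 3, where 3.38% of all genes were called. With HDB, Eif2ak2 had the smallest p (-0.56 ± 0.19 SE, adjusted p = 0.27, edgeR). Over 14 alternatives the log2 fold change of Eif2ak2 ran from -0.77 to -0.24. Without HDB 10 mm replicate 3 the HDB median was -0.09, with 0 members at an unadjusted p under 0.05 (edgeR). Without HDB 10 mm replicate 1 there were 16 members at that p. The acellular median was 0.02 without acellular 15 mm replicate 1 and -0.41 without replicate 3 of that group, so its sign rested on 1 library.

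The interaction of treatment and size, the test of whether HDB acted differently in the 2 wound sizes, called no member and no gene by edgeR (0%). The members' median was -0.50 (-0.04 over all genes), so the HDB estimates were smaller at 15 mm. At an unadjusted p under 0.05 (edgeR, 13.4% of all genes) were Ifit2 at -0.88 ± 0.36 (SE), Ifit3 at -1.15 ± 0.47 and Ifitm3 at 0.75 ± 0.34, and DESeq2 called 0 members (4.82% of all genes) and had 3. The median ran from -0.73 to 0.02 when 1 wound library at a time was left out.

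Of 84 other genes of the interferon pathway, 79 were in the table and 72 were tested. None was called in HDB against acellular skin at either size, over both, or in the interaction. The 40 tested further interferon-induced genes on that list gave 39 higher estimates over both sizes with a median of 0.45. Without HDB 10 mm replicate 3 and acellular 15 mm replicate 1 there were 26 higher estimates with a median of 0.12, so this list too rested in part on those libraries. With all samples, 13 inducers of interferon (8 higher, median 0.02) and 7 restraints (4 higher, median 0.02) had medians near 0, over genes that went both ways. Among the restraints, mean Trex1 was 9.42 CPM in acellular 10 mm and 12.47 CPM in HDB 10 mm. Mean Socs3 was 60.1 and 33.35 CPM in the same order. Among the 6 receptors, Ifnlr1, the type III interferon receptor chain, was called higher than normal skin in acellular 10 mm, HDB 10 mm and acellular 15 mm. It was at 10.1, 7.23 and 7.98 CPM in normal skin and 10.3 to 23.1 CPM in wounds, with log2 fold changes of 1.24, 0.94 and 1.03 (adjusted p = 0.0060, 0.020 and 0.0064, edgeR) and 0.76 in HDB 15 mm (0.053). Both chains of the interferon gamma receptor were called lower in acellular 15 mm, Ifngr1 with a log2 fold change of -0.71 and Ifngr2 with -0.69 (adjusted p = 0.023 and 0.012, edgeR), and Ifngr2 in HDB 10 mm with -0.61 (0.037). The shares of all genes called in these comparisons are those given above. Ifng was called higher in HDB 10 mm (log2 fold change 3.85, adjusted p = 0.047, edgeR) on the counts given above, of which 43 came from replicate 3.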

How the data were processed

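Poly(A) RNA of mouse skin was sequenced in 15 samples, 3 in each of 5 groups. The authors deposited 1 table of expected counts (estimated counts that need not be whole) for 18929 genes, not normalized. The submitters' processing notes name HISAT2 2.0.4, Bowtie2 2.2.5, RSEM 1.2.12 and GRCm38.p6, and the use of strand is not given in the sources used here. Expected counts were rounded. The study names DESeq2, but edgeR was used for the main test because its quasi-likelihood test carries the uncertainty of 3 samples a group.

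In R 4.3.3, edgeR 4.0.16 was run with TMM factors, filterByExpr (15369 genes kept) and 1 quasi-likelihood fit of 5 group means, adjusted by Benjamini-Hochberg over all genes at a threshold of 0.05. Each standard error was the absolute log2 fold change over the root of its F value. A prior count of 2 entered log2 CPM. Exact permutation tests had 20 arrangements within a size (smallest p 0.1) and 400 over both. Lengths per gene came from GENCODE vM21 and promoters from RefSeq. DESeq2 1.42.0, RLE factors, other filters, a replicate block, fits of only the compared groups and leaving out each replicate were the alternatives. On data simulated for HDB against acellular 15 mm, the test recovered 23% of 200 genes changed by 1 log2 unit (15274 genes, 1 false call) and 74% of those changed by 2 (15295 genes, 4 false calls). Same-numbered acellular and HDB samples at 15 mm deviated together (r = 0.397, 0.167 and 0.183). Acellular 10 mm with HDB 15 mm gave r = 0.489, 0.242 and -0.342, so the numbers were not shown to pair the samples. The replicate block was therefore an alternative only.

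Values in every sample are given for the member with the highest level per length in each role, for up to 3 called members with the smallest p in each direction in a comparison with normal skin, and for the member with the smallest p where none was called. Among the GTPases, Igtp and Iigp1 were level at 18.32 CPM per kb, and Igtp was taken. Irgm1, Oasl1, Irf9, Socs1, Irf7 and Ifit1 were added after their values were seen. The members, lists and markers were chosen with earlier results of these data known. An item withheld for evaluation is not reported here.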

Additional observations from a re-analysis of the deposited data

How the results depend on the processing

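No median of the members moved by more than 1 SD between replicates of the most variable group in its comparison (150 values), a wide limit within which some medians changed sign. Without HDB 10 mm replicate 3 the median went from 0.48 to -0.01 in HDB 10 mm against normal skin. In the interaction it went from -0.50 to 0.02. Counts of called members stayed within 1.5 times in 138 cases and moved further in 22. Single members were counted only where the rule above named them for that comparison. Their values kept direction and call in 379 cases, lost the call in 25, gained it in 2 and reversed in 4. The 4 reversed values of that count were all in HDB against acellular over both sizes. Eif2ak2 was at -0.0151 without HDB 10 mm replicate 3 (range -0.0151 to 0.2439 when 1 replicate was left out). Without that library and acellular 15 mm replicate 1 together (chosen after seeing the data), Irf1 was at -0.0709, Eif2ak2 at -0.0287 and Igtp at -0.0305. Members outside that count changed sign as well. In the 10 mm wounds without HDB 10 mm replicate 3, Irf9 was at -0.18, and 33 of 41 estimates were higher. With only the compared groups in the fit, 12 members were called in acellular 10 mm (42% of all genes) and 6 in HDB 15 mm (22.9%) against normal skin, 2 of them higher in each. DESeq2 called 8 in acellular 10 mm (28.7%), 6 in acellular 15 mm (36.3%) and 3 in HDB 10 mm (20.9%), with Isg15 the 1 higher call. With both libraries left out, 3 were called in HDB 10 mm (12.3%, all lower) and 4 in acellular 15 mm (22.1%, Socs1 higher). On total counts (also chosen after seeing the data) 3 were called in HDB 10 mm (21.3%, 2 of them higher). Leaving out 1 replicate at a time, the count was 0 to 1 for HDB against acellular at 15 mm and for acellular 15 mm against 10 mm, 3 to 7 for acellular 15 mm against normal skin, 0 to 3 for HDB 10 mm (the 3, all higher, without its replicate 1, beside 17.5% of all genes) and 0 to 3 for HDB 15 mm. The upper counts of 1, 1 and 7 came without acellular 15 mm replicate 3, beside 14.9%, 3.38% and 37.3% of all genes. The 3 in HDB 15 mm came without its replicate 2, beside 8.61% of all genes. The cause was not tested in any of these.

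With the replicate number as a block, 0 members were called in HDB 10 mm (7.72% of all genes) and 0 in HDB 15 mm (1.54%) against normal skin, 5 in acellular 10 mm (16%) and 3 in acellular 15 mm (25.3%), and the block changed no other count. The numbers were not shown to pair the samples at either size. The number of samples, 3 a group, limits what can be called, and the members' own spread was wider than that of all genes in every group.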

Other observations

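Among the further interferon-induced genes outside the member list, 4 of the 40 tested were called lower than normal skin in acellular 10 mm (10.6% of all genes) and 4 in acellular 15 mm (12.6%), no more often than all genes. The p200-family genes Ifi204 and Ifi205, whose relatives sense DNA, were at 34.3, 55.0 and 39.1 CPM and at 54.5, 96.2 and 70.4 CPM in normal skin, and at 8.96, 14.0 and 9 CPM and 16.1, 23.4 and 16.9 CPM in acellular 10 mm, with no overlap. Their log2 fold changes there were -2.00 and -1.97 (adjusted p = 0.0094 and 0.014, edgeR). In acellular 15 mm they were at -1.37 and -1.62 (adjusted p = 0.022 and 0.019, edgeR). In HDB 10 mm they were at 18.4, 19.4 and 31.3 CPM and at 26.8, 13.3 and 37.0 CPM, with log2 fold changes of -0.89 and -1.52 (adjusted p = 0.14 and 0.044, edgeR). In HDB 15 mm they were at -0.29 and -0.33 (adjusted p = 0.66 for both, edgeR). Slfn5 fell by 2.11 on the log2 scale in acellular 10 mm (adjusted p = 0.0077, edgeR) and by 1.38 in acellular 15 mm (0.021), and was at -1.16 in HDB 10 mm (0.065) and -1.02 in HDB 15 mm (0.12). All 12 wound samples lay below normal skin for Slfn5, at 26.9 to 109 CPM against 144 to 159 CPM.

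Tap1, which carries peptides to MHC class I, was higher than normal skin in acellular 10 mm (194, 196 and 130 CPM against 78.0, 78.9 and 67.9 CPM) with a log2 fold change of 1.21 (adjusted p = 0.025, edgeR), and in HDB 10 mm with 1.11 (0.045). Genes induced by interferon thus lay on both sides of normal skin in the same libraries, as Ifit3b and Irf1 did among the members. These genes were named after their values were seen.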
